A study of Mus musculus with 24 samples.

Results

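T cells and cytotoxic lymphocytes were followed in mouse liver through 10 genes. The genes were the CD3 chains Cd3d, Cd3e and Cd3g, the co-receptors Cd4, Cd8a and Cd8b1, the granzymes Gzma, Gzmb and Gzmk, and Nkg7. They were chosen by name as markers of these cells. In the table of p16-3MR livers all 10 were found by their Ensembl identifiers among 21755 rows. In the table of wild-type (WT) livers 9 letters are missing from every gene label, and 3 of the 10 (Cd3d, Cd8a and Gzma) had a label that could stand for no other symbol, among 12643 labels.

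The study asked what removal of p16-expressing cells does to the aged liver, and RNA was sequenced from the 3′ ends of transcripts in 24 livers. Each of 8 groups held 3 mice. The p16-3MR mice carry a bacterial artificial chromosome in which the p16Ink4a locus drives a reporter fused to a herpes simplex thymidine kinase, an enzyme that turns ganciclovir (GCV) into a poison for the cell that makes it, and WT mice lack it. Female (F) and male (M) p16-3MR mice began treatment at 16 to 18 months of age with GCV or vehicle (VEH, alkaline water), given into the peritoneum on 5 days of each month, and their livers were taken at about 28 months. WT females and males received the same GCV or VEH for 3 months from 6 months of age. The dose is 150 mg/kg in the sample labels, while the methods of the study give another value. The p16-3MR libraries formed batch 1 and the WT libraries batch 2, so that genotype, age, length of treatment and batch cannot be told apart, and each table was analysed by itself.

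CD3 chains are the signalling part of the T cell receptor and are made by T cells, including natural killer T cells, while CD4 and CD8 are the co-receptors that recognise class II and class I major histocompatibility molecules. Granzymes are serine proteases that cytotoxic T cells and natural killer cells deliver into a target cell, and NKG7 is a membrane protein of their cytotoxic granules. The healthy liver holds natural killer cells, natural killer T cells and CD8+ memory T cells in its sinusoids. In whole liver, fewer cells of a type and less RNA per cell cannot be told apart.

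Library totals ran from 5005760 to 7160172 estimated counts in p16-3MR livers and from 3084517 to 5667904 in WT livers. Levels are given as CPM, the counts relative to the size of the library, after TMM scaling, a correction for differences in RNA composition. Liver 33 (F GCV) stood apart, with 64% of its counts from mitochondrial genes and a TMM factor of 0.259, against 12.3% to 22.4% and 0.85 to 1.8 in the other 11 p16-3MR livers. A single count in liver 33 was worth 0.772 CPM, and 3 counts, the floor under which a gene is read as not detectable here, were worth 2.32 CPM. In the other p16-3MR livers this floor lay between 0.293 and 0.578 CPM. The members were sparse. All 10 together held 3911 counts in 12 p16-3MR livers, from 65 for Gzmk to 2240 for Cd4, and 44 of 120 values were at or under 3 counts, 17 of them at 0.

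The 3 CD3 genes lie in a cluster on chromosome 9 (GENCODE annotation of GRCm38): Cd3g at chr9:44969572-44980431 on the minus strand, Cd3d at chr9:44981786-44987339 on the plus strand and Cd3e at chr9:44998740-45009627 on the minus strand. Cd3g and Cd3d are read away from each other, with 1355 bases between their start sites. The span of Cd3e overlaps the predicted genes Gm48719 (plus strand) and Gm48720 (minus strand), so that its counts may hold reads of theirs. Whether counting used the strand is not given in the sources used here. Cd8b1 (chr6:71322788-71337494) and Cd8a (chr6:71373427-71379173) are neighbours on the plus strand of chromosome 6, and Cd4 lies at chr6:124864692-124888221 on the minus strand. Gzma (chr13:113093825-113100981) and Gzmk (chr13:113171608-113225908, whose span overlaps Esm1 on the other strand) are both on the minus strand of chromosome 13. Gzmb is at chr14:56258838-56262260 on the minus strand, and Nkg7 at chr7:43437073-43438249 on the plus strand.

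Because most of the members varied together across livers, promoters are shown for what letters they hold. RefSeq promoter windows (GRCm38.p6) were found for 8 of the 10 genes (not for Cd4 and Cd8b1), and the 250 bases before the RefSeq start were searched on both strands for an ETS motif (AGGAAG), a RUNX motif (TGTGGT) and an E-box (CAGGTG), the letters of 3 families of factors that act in lymphocytes. The RefSeq start was the GENCODE start for Cd3d, Cd3g, Cd8a and Gzma and lay 16 bases inside the GENCODE gene for Cd3e. It lay 74 bases before the GENCODE start of Gzmb, and 65 and 44943 bases inside the GENCODE genes of Nkg7 and Gzmk, so that the windows of these 3 are not described. The 4 windows that follow are those of the CD3 cluster and of the granzyme Gzma. Each reads 5′ to 3′ on the strand of its gene, and capitals mark the motif letters, or their reverse complement.

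Cd3g: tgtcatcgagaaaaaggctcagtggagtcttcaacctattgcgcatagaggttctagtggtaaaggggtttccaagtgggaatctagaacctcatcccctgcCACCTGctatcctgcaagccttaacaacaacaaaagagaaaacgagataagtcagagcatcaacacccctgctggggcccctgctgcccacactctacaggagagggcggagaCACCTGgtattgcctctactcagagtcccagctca
Cd3d: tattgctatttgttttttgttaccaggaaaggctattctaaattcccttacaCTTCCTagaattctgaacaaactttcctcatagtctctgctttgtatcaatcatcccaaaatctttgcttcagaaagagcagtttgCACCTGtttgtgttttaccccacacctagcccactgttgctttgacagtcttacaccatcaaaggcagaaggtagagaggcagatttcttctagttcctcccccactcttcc
Cd3e: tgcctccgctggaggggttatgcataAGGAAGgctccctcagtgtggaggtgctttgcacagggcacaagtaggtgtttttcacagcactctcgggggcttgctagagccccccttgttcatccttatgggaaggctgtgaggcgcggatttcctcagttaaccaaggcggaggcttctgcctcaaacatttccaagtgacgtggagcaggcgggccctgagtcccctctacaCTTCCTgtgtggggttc
Gzma: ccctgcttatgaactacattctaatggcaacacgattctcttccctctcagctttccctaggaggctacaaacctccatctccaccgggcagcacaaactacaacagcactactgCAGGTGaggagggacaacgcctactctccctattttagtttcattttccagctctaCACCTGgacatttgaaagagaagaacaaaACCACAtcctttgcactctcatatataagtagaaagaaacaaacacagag

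These windows are chr9:44980432-44980681 (minus strand) for Cd3g, chr9:44981536-44981785 (plus) for Cd3d, chr9:45009612-45009861 (minus) for Cd3e and chr13:113100982-113101231 (minus) for Gzma. Counted back from the RefSeq start, the ETS letters began 198 bases before Cd3d, and 224 and 17 bases before Cd3e. RUNX letters were found 50 bases before Gzma. E-box letters stood 112 bases before Cd3d, 148 and 35 bases before Cd3g, and 135 and 79 bases before Gzma. The window of Cd8a held none of the 3. Among all 32851 promoter windows of this length, 29.5% held the ETS letters, 14% the RUNX letters, 17.2% the E-box letters and 49.4% at least 1 of the 3. A match describes the sequence and is not a shown binding site.

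In the p16-3MR livers the CD3 genes varied widely between mice of the same group. Cd3g, which encodes the gamma chain, stood at 0.193, 1.54 and 0.839 CPM in the F GCV livers (31, 33 and 35), at 1.74, 1.59 and 8.43 CPM in the F VEH livers (27, 28 and 29), at 4.93, 6.44 and 2.31 CPM in the M GCV livers (30, 32 and 34) and at 6.18, 0.536 and 0.625 CPM in the M VEH livers (24, 25 and 26). Livers 29, 32, 24 and 30 held its 4 highest levels, from 3 of the 4 groups. Cd3e, the epsilon chain that pairs with either of the other CD3 chains, stood in the same order of livers at 0.771, 3.09 and 0.671 CPM, then 0.804, 1.16 and 5.92 CPM, then 4.65, 4.2 and 2.5 CPM, and then 4.32, 0.179 and 0.625 CPM. Its 4 highest livers were the same ones. Cd3d, the delta chain, was the sparsest of the chains, with 79 counts in all, and stood at 0.386, 2.32 and 0.671 CPM in F GCV, 0.804, 0.145 and 1.26 CPM in F VEH, 1.27, 2.24 and 0.768 CPM in M GCV and 1.63, 0.357 and 0.156 CPM in M VEH. The highest Cd3d level, in liver 33, rested on 3 counts, the floor of that library. Group means of Cd3g were 0.859 ± 0.676 CPM (SD, n = 3) in F GCV, 3.92 ± 3.91 in F VEH, 4.56 ± 2.09 in M GCV and 2.45 ± 3.24 in M VEH, so that the SD was about as large as the mean in F VEH and larger than it in M VEH.

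Among the co-receptors the spread was wider. Cd4, made by helper T cells and in mice also by some dendritic cells, stood at 0.386, 0 and 1.68 CPM in F GCV, at 1.88, 0.868 and 39.4 CPM in F VEH, at 21.4, 74.1 and 5.38 CPM in M GCV and at 109, 2.14 and 1.09 CPM in M VEH. Its highest liver was 54.4 times the median of the 12, the largest such ratio among the 10 genes, and 8 of the 12 livers were between 0 and 5.38 CPM. Group means were 0.688 ± 0.878 CPM in F GCV, 14 ± 22 in F VEH, 33.6 ± 35.9 in M GCV and 37.5 ± 62.2 in M VEH (SD, n = 3).

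Cd8a, the alpha chain of the CD8 co-receptor, stood at 0.193, 0 and 0 CPM in F GCV, at 0.268, 1.59 and 4.91 CPM in F VEH, at 4.37, 6.73 and 1.92 CPM in M GCV and at 5.95, 0.714 and 0.313 CPM in M VEH. The F GCV livers held 1 count of Cd8a in all. Cd8b1, the beta chain found on conventional CD8 T cells, stood at 0, 0 and 0.503 CPM in F GCV, at 0.134, 0.579 and 3.65 CPM in F VEH, at 2.25, 4.88 and 0.768 CPM in M GCV and at 2.22, 0.357 and 0.469 CPM in M VEH. Both chains had their 4 highest levels in livers 24, 29, 30 and 32.

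The cytotoxic genes had the same high livers. Gzmb, the granzyme that cleaves caspases in a target cell, stood at 2.51, 0.772 and 0.839 CPM in F GCV, at 0.402, 4.49 and 5.92 CPM in F VEH, at 7.75, 12.2 and 1.92 CPM in M GCV and at 7.7, 1.61 and 0.313 CPM in M VEH. Nkg7 stood at 0.193, 0.772 and 0.335 CPM in F GCV, at 0, 1.88 and 2.27 CPM in F VEH, at 3.38, 4.29 and 0.768 CPM in M GCV and at 4.2, 1.25 and 0 CPM in M VEH. For both genes every group overlapped every neighbour in the order of group means.

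Gzma, a tryptase of cytotoxic T cells and natural killer cells, stood at 0.964, 0 and 0 CPM in F GCV, at 0, 1.01 and 1.26 CPM in F VEH, at 1.69, 2.83 and 0 CPM in M GCV and at 13.8, 0.357 and 0 CPM in M VEH. Liver 24 alone held 118 of its 183 counts. Gzmk, a granzyme of memory-type CD8 T cells, stood at 0, 0 and 0.335 CPM in F GCV, at 0, 0.434 and 3.02 CPM in F VEH, at 1.55, 1.56 and 0.192 CPM in M GCV and at 0.934, 0 and 0 CPM in M VEH, with 8 of 12 livers at or under 3 counts.

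**Figure D1:**
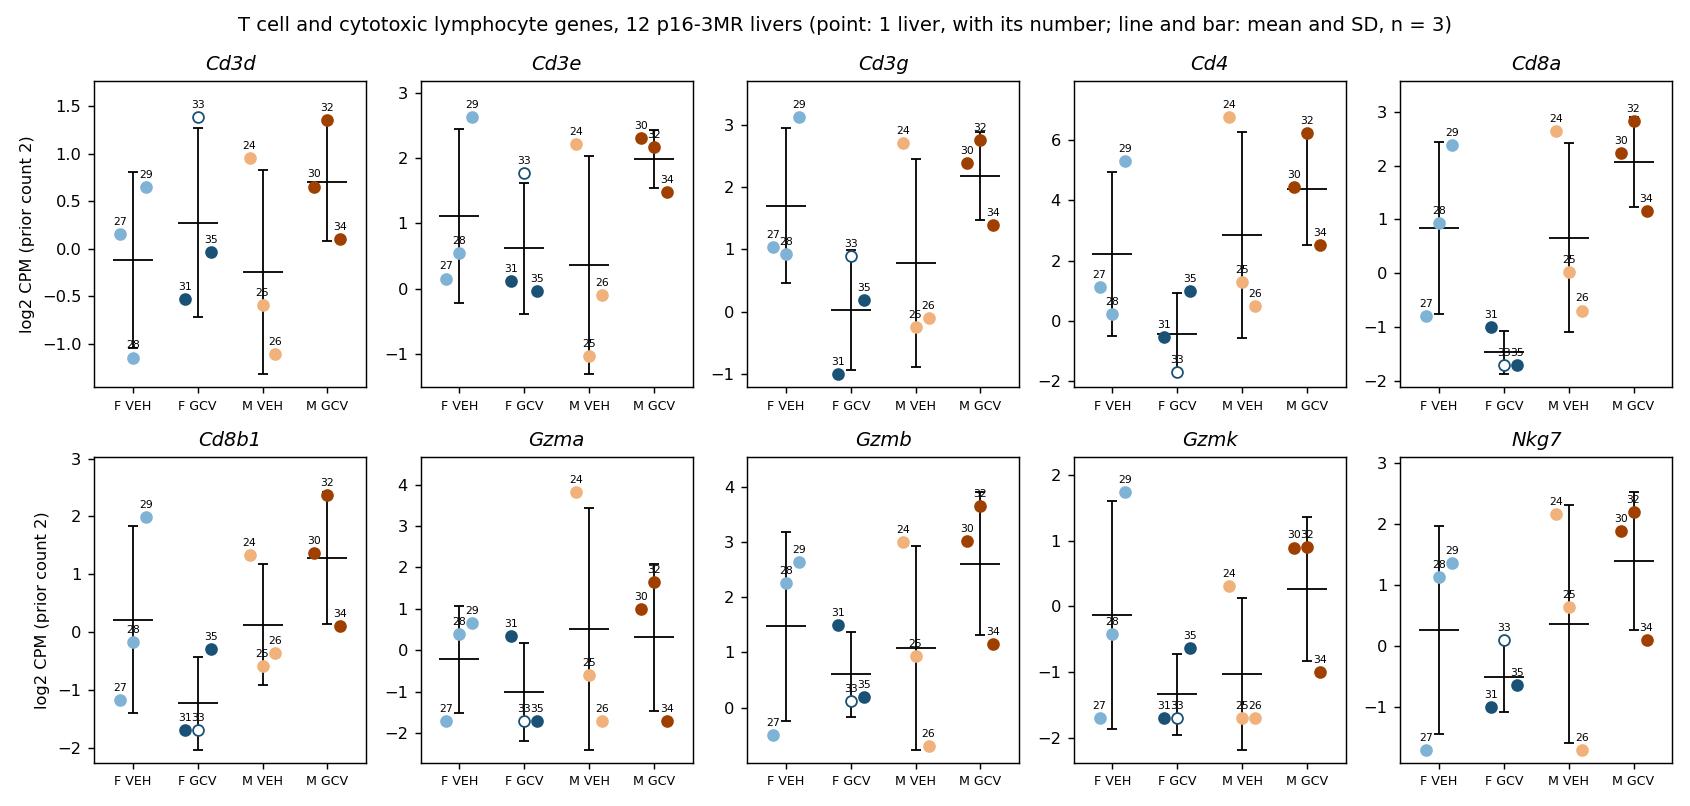
Level of each of the 10 genes in each p16-3MR liver (TMM-scaled log2 CPM with a prior count of 2, vertical axis), with a point for each of the 3 livers of a group and a line at the group mean. Single livers in the F VEH, M GCV and M VEH groups lie far above the rest, and the F GCV livers lie low for Cd8a, where they held 1 count in all.

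By mean log2 CPM the order of the groups was M GCV, F VEH, M VEH and F GCV, from high to low, for Cd3g, Cd8a, Cd8b1, Gzmb and Gzmk. Cd4 and Nkg7 followed M GCV, M VEH, F VEH and F GCV. The other orders were M GCV, F VEH, F GCV and M VEH for Cd3e, M GCV, F GCV, F VEH and M VEH for Cd3d, and M VEH, M GCV, F VEH and F GCV for Gzma. Neighbours in these orders overlapped, except for the last step of Cd8a, between M VEH and F GCV, where the nearest livers held 2 counts and 1 count, under the floor.

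Livers 24, 29, 30 and 32 were the 4 highest for 9 of the 10 genes, and for all 10 when liver 33 was left out. They come from 3 groups (24 from M VEH, 29 from F VEH, 30 and 32 from M GCV). Summed over the 10 genes, the level was 156 CPM in liver 24, 119 in liver 32, 76 in liver 29 and 53.3 in liver 30, and between 3.59 and 16.5 CPM in the other 8 livers. Over 45 pairs of members, Spearman's rho across the 12 livers ran from 0.336 (Cd3d and Cd8a) to 0.945 (Cd8b1 and Gzmk), with a median of 0.706, and from 0.557 to 0.959 without liver 33. These correlations describe the 12 livers, whose genes share a library, its depth and its TMM factor.

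Other lymphocyte and leukocyte genes had the same high livers. The 4 highest livers by mean log2 CPM were again 24, 29, 30 and 32 for 20 further genes of the T cell receptor and its signalling, 27 cytotoxic effectors and natural killer receptors, 24 lymphocyte transcription factors and homing receptors, 13 costimulatory and checkpoint receptors, 15 pan-leukocyte genes and 7 dendritic cell genes. Kupffer cell genes (10, the resident macrophages) and monocyte and neutrophil genes (8) had liver 28 in place of liver 29. For 11 B lineage genes the 4 highest were 28, 29, 30 and 34. Livers 24, 30 and 32 were also 3 of the 4 with the lowest mean of 8 hepatocyte genes, beside liver 33.

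The mean log2 CPM of the 3 CD3 genes was set against these lists over the 12 livers, as a description. With the T cell receptor list Pearson's r was 0.878 and rho 0.881, and r was 0.811 without the 2 livers farthest from the median. Within the 6 females r was 0.747, and within the 6 males 0.954. With Cd8a and Cd8b1 r was 0.747 (rho 0.685), or 0.6 without the 2 farthest, 0.58 in females and 0.971 in males. With the Kupffer cell list r was 0.667 (rho 0.573), or 0.568 without the 2 farthest, 0.292 in females and 0.838 in males. With the hepatocyte list r was -0.616 (rho -0.671), the same without the 2 farthest, -0.755 in females and -0.632 in males. In all, 19 such relations were computed. With the B lineage list r was 0.622, 0.794 in females and 0.489 in males. With the pan-leukocyte list it was 0.818, 0.637 in females and 0.905 in males. The relations with T cell, B lineage and pan-leukocyte genes were positive in both sexes, while that with Kupffer cell genes was weak in females. Taken singly, Gzma and Gzmb had r of 0.904 and 0.896 with the Kupffer cell list. With the T cell receptor list their r was 0.763 and 0.882. The other members had the higher r with the T cell receptor list. The CD3 mean was also set against measures of the library. With the log2 TMM factor r was 0.173, -0.246 in females and 0.721 in males. With the log2 number of genes detected it was 0.193, -0.271 in females and 0.908 in males, and with the mitochondrial share 0.05, 0.462 in females and -0.92 in males. Without liver 33, a female liver, these r were 0.719, 0.807 and -0.41 over the other 11. Livers 24 and 32 had the highest TMM factors (1.64 and 1.8) and the most genes with counts (18645 and 18659). Their part in the levels of the members was not tested.

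**Figure D2:**
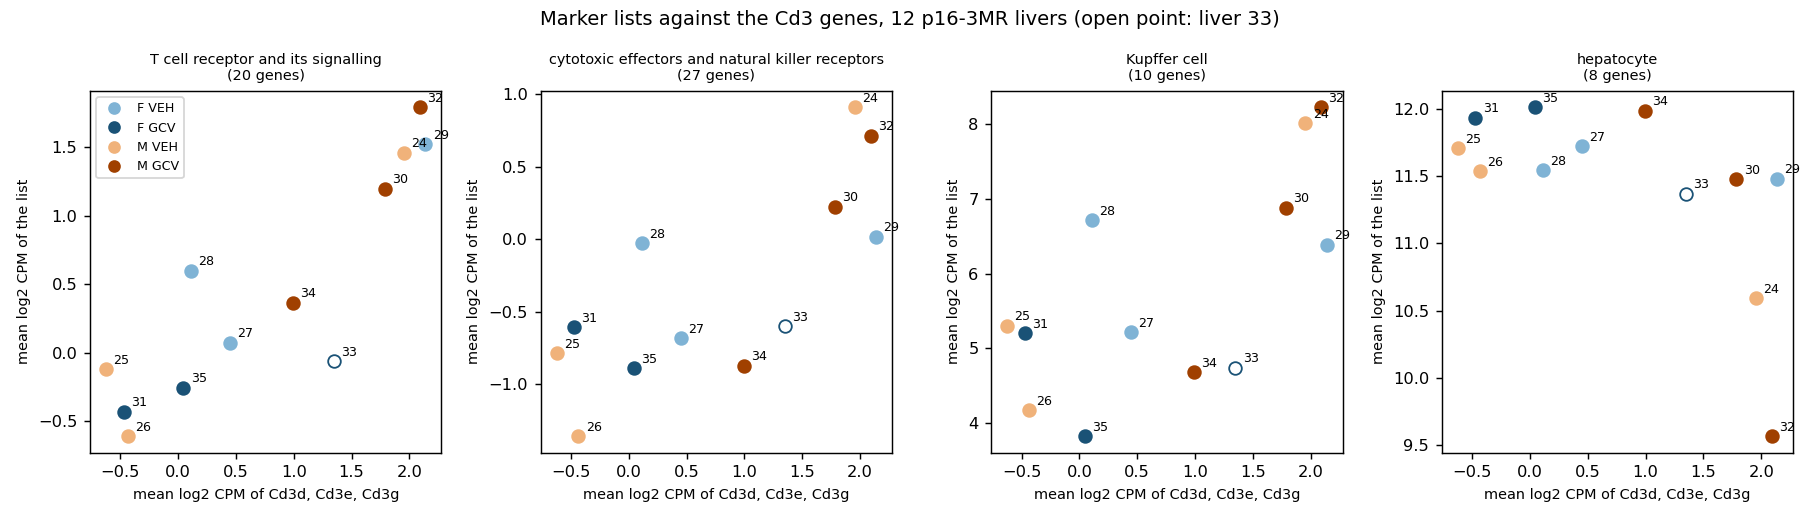
Mean log2 CPM of Cd3d, Cd3e and Cd3g (horizontal axis) against the mean log2 CPM of marker lists (vertical axis) in the 12 p16-3MR livers, with 1 point for each liver and colours for the 4 groups. Livers 24, 29, 30 and 32 lie at the high end for the T cell receptor list (r = 0.878), and the hepatocyte list runs the other way (r = -0.616).

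The first comparison asked whether GCV moved these genes in p16-3MR females. None of the 10 passed the test (edgeR's quasi-likelihood test, Benjamini-Hochberg adjusted over all 21755 rows), where 0% of all rows passed, and DESeq2 called none of the 10 either (it gave Gzmk no adjusted p), where it called 0.648% of the rows it gave an adjusted p. At an unadjusted p under 0.05 there were 2 of 10, Cd8a and Cd3g, where 7.37% of all rows lay. The fitted log2 fold change, GCV minus VEH, was -4.52 (SE 1.6, adjusted p = 0.653) for Cd8a and -2.45 (SE 1.12, adjusted p = 0.667) for Cd3g. The CPM of the groups did not overlap for these 2 genes, nor for 13.3% of all rows. For Cd3g the nearest livers were at 1.54 CPM (liver 33, 2 counts) and 1.59 CPM (liver 28), and for Cd8a they held 1 count (liver 31) and 2 counts (liver 27). Liver 33 lay under its floor for Cd3g and both nearest livers under theirs for Cd8a, so that neither separation was detectable at this depth. As a ratio of pooled counts, the VEH females held 29 times the Cd8a of the GCV females, with a 95% counting interval from 4.98 to 1170, since this rests on 52 counts against 1.

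The other co-receptor genes had fitted values of -3.96 (SE 1.91, adjusted p = 0.667) for Cd4 and -2.61 (SE 1.41, adjusted p = 0.678) for Cd8b1, whose pooled ratio, VEH over GCV, was 6.32 (1.99 to 32.2, from 34 counts against 3). Liver 29 alone gave 313 of the 333 Cd4, 39 of the 52 Cd8a, 29 of the 34 Cd8b1, 24 of the 27 Gzmk and 67 of the 91 Cd3g counts of the VEH females. Without it the pooled ratio, VEH over GCV, was 1.44 (0.672 to 3.24) for Cd4, 11.3 (1.69 to 478) for Cd8a, 1.44 (0.281 to 9.29) for Cd8b1, 1.3 (0.149 to 15.6) for Gzmk and 2.6 (1.13 to 6.69) for Cd3g. Among the cytotoxic genes the fitted values were -2.8 (SE 1.79) for Gzmk, with a pooled ratio of 7.53 (1.89 to 65.3, from 27 counts against 2), -1.94 (SE 1.5) for Nkg7, -1.28 (SE 1.1) for Gzmb and -0.92 (SE 1.92) for Gzma, all with adjusted p between 0.708 and 0.937. Cd3e had -1.1 (SE 1.09), and Cd3d was the only one above 0, at 0.31 (SE 1.09), or -0.53 without liver 33. The median over the 10 genes was -2.19, against 0 over all rows, and 9 of 10 lay below 0. This median was -0.65, and no member was under an unadjusted p of 0.05, when liver 29 was left out, where 4.29% of all rows lay in that fit. Without liver 31, 35 or 30 the number was 1, where 6.87%, 12.4% and 5.84% of all rows lay. Without liver 27 it was 4 (4.59% of all rows), and without any of livers 28, 32, 34, 24, 25 and 26 it was 3, where 4.43% to 7.96% of all rows lay.

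In p16-3MR males the fitted differences between GCV and VEH were close to or below their standard errors. None of the 10 passed the same edgeR test, where 0% of all rows passed, none had an unadjusted p under 0.05, where 1.91% of all rows lay, and DESeq2 called none, where it called 0.0231% of rows. Log2 fold changes lay above 0 for 8 genes, from 0.62 (SE 1.18) for Nkg7 to 1.68 (SE 1.49) for Gzmk, and below 0 for Cd4 (-0.16, SE 1.46) and Gzma (-1.6, SE 1.54), with a median of 0.91 against 0.04 over all rows. All groups overlapped. The male comparison turned on liver 24, a VEH liver with the highest level of Cd4 and Gzma. Without it the median was 3.03 (0.12 over all rows), and 6 genes had an unadjusted p under 0.05, where 7.76% of all rows lay in that fit: Cd4 at 4.42, Gzmk at 5.88, Cd3e at 3.17, Cd8a at 3.09, Gzmb at 2.98 and Cd3g at 2.97. Their edgeR adjusted p lay between 0.491 and 0.56. Without liver 32 the median was 0.43.

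Whether GCV acted differently in females and males was tested as an interaction term, the female minus the male log2 fold change. None of the 10 passed (edgeR), where 0% of all rows passed, and DESeq2 called none, where it called 0.0138% of rows. At an unadjusted p under 0.05 there were 3, where 3.78% of all rows lay: Cd8a at -5.4 (SE 1.92), Cd8b1 at -3.95 (SE 1.8) and Cd3g at -3.32 (SE 1.45), each with an adjusted p of 0.976. The median of the 10 was -2.94, against -0.04 over all rows, and Gzma alone lay above 0, at 0.68 (SE 2.6). The count at an unadjusted p under 0.05 was 0 without liver 29, 1 without any of livers 31, 30, 32, 25 and 26, 5 without liver 27 and 7 without liver 24, where 2.27%, 3.37% and 8.48% of all rows lay in the fits without livers 29, 27 and 24, and 2.22% to 3.96% in those with 1. The median was -1.93 without liver 29 and -4.84 without liver 24. In the fit without liver 24 Cd8a stood at -7.66 (adjusted p = 0.306).

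Averaged over treatments, p16-3MR females were compared with males. None of the 10 passed (edgeR), where 0.303% of all rows passed, and DESeq2 called none, where it called 1.34% of rows. All 10 fitted values lay below 0, that is lower in females, with a median of -1.29 against -0.07 over all rows. Cd8a at -2.77 (SE 0.96, adjusted p = 0.63) and Cd4 at -3.32 (SE 1.23, adjusted p = 0.68) had an unadjusted p under 0.05, where 7.05% of all rows lay. The smallest differences were -0.32 (SE 0.73) for Cd3d and -0.52 for Cd3e (SE 0.73) and Gzmk (SE 1.13). Without liver 24 the median was -0.11 and none had an unadjusted p under 0.05, and without liver 29 or 26 there were 4 such genes. In these 3 fits 4.23%, 6.24% and 7.85% of all rows lay under that p. In VEH livers alone the median was 0.07, Cd8a stood at -0.07 and none had an unadjusted p under 0.05, where 2.74% of all rows lay.

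**Figure D3:**
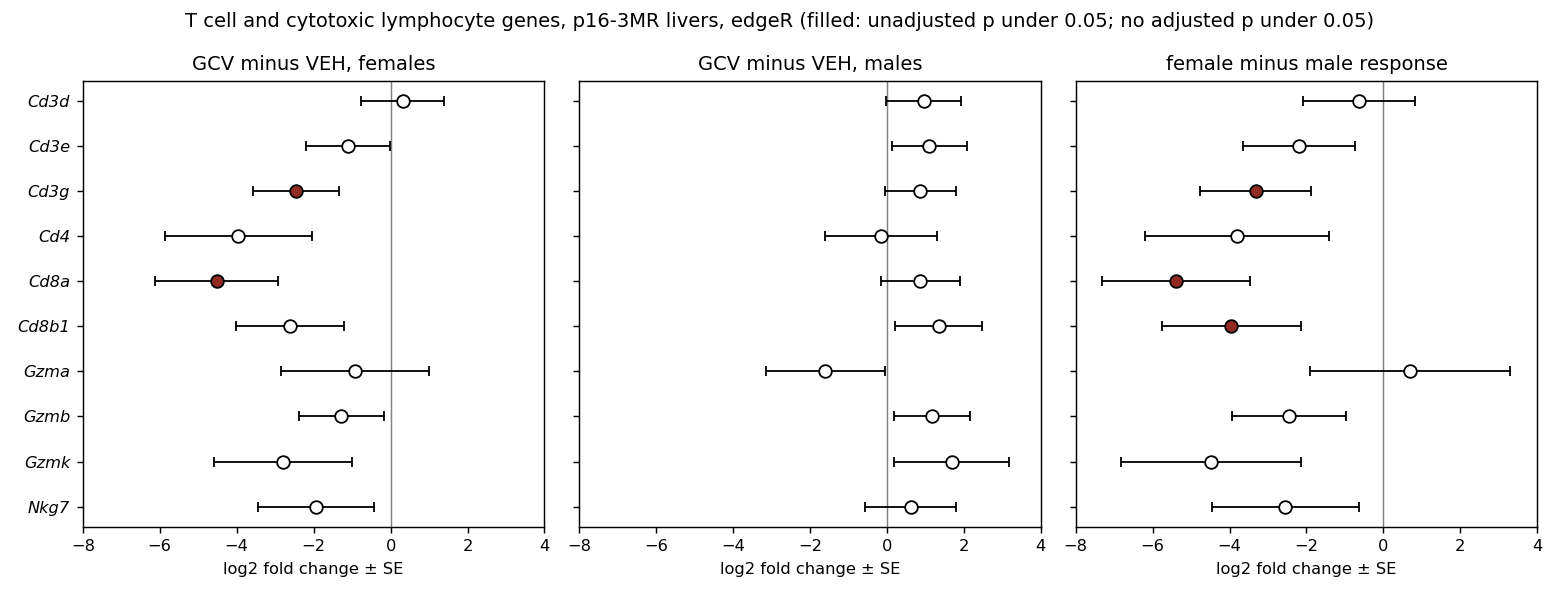
Log2 fold change of each gene for the GCV response of each p16-3MR sex and for the interaction term (horizontal axis), with bars of 1 standard error from edgeR. In females 9 of 10 values lie below 0 for GCV minus VEH, in males 8 of 10 lie above 0, and no gene passed the adjusted threshold.

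The wider pathway was read from 4 lists of further genes, in which no gene passed the edgeR test in any of the 4 p16-3MR comparisons. Of all rows, 0.303% passed between the sexes and 0% in the other comparisons. In females, GCV minus VEH was below 0 for 19 of 20 genes of the T cell receptor and its signalling, with a median of -1.47. It was -1.16 with bounds, where a group at 0 is set to 3 counts over its livers together. The 3 with the lowest unadjusted p were Cd2, an adhesion receptor of T cells (-2.98, SE 0.93, adjusted p = 0.646), Cd247, the zeta chain of the receptor (-3.73, SE 1.46, adjusted p = 0.667, with 0, 0 and 1 counts in GCV livers), and Trac, the constant region of its alpha chain (-2.95, SE 1.22, adjusted p = 0.667). Only these 3 of the 20 had an unadjusted p under 0.05, where 7.37% of all rows lay. Liver 29 held 139 Cd2, 22 Cd247 and 37 Trac counts. Livers 27 and 28, the other VEH females, held 16 and 30, 1 and 6, and 9 and 10. Of 27 cytotoxic effectors and natural killer receptors, 22 lay below 0, with a median of -0.68 (-0.63 with bounds). None of these 27 had an unadjusted p under 0.05, where 7.37% of all rows lay. Of 24 transcription factors and homing receptors, 19 lay below 0 (median -0.91, or -0.8 with bounds). Under that p, 2 were lower and 1 was higher. Of these, Tbx21 is the master factor of type 1 and cytotoxic lymphocytes. It was counted 0 times in all 3 GCV livers and 3, 7 and 2 times in VEH livers (adjusted p = 0.653). Gata3, which directs type 2 helper cells, lay the other way at 2.73 (SE 1.1, adjusted p = 0.667). It was counted 10, 1 and 6 times in GCV livers and 1, 1 and 2 times in VEH livers. Of 13 costimulatory and checkpoint receptors, 11 lay below 0 (median -1.87, or -1.33 with bounds), and 1 lower and 1 higher gene were under that p. Tigit, an inhibitory receptor, was counted 0 times in GCV females and 1, 2 and 3 times in VEH females (adjusted p = 0.667). No liver of either group held more than 3 counts of it, so that no fold is given. Tnfrsf4, which encodes OX40, was counted 2, 4 and 0 times in GCV livers, the 4 in liver 33, and 1, 0 and 0 times in VEH livers.

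In males the same lists lay above 0 for GCV minus VEH, in 19 of 20, 16 of 27, 19 of 24 and 13 of 13 genes, with medians of 0.88, 0.47 (0.38 with bounds), 0.8 and 0.59 (0.54 with bounds). Il7r, the receptor for the survival factor interleukin 7, was the only gene among them with an unadjusted p under 0.05 (1.59, SE 0.7, adjusted p = 1), where 1.91% of all rows lay. For the interaction, all 20 T cell receptor genes lay below 0 (median -2.47, or -2.36 with bounds), and Cd2 (-3.62), Trac (-4.34), Cd247 (-4.57) and Thy1 (-2.5) had an unadjusted p under 0.05, each with an adjusted p of 0.976. Of the other 3 lists 1 of 27, 5 of 24 and 1 of 13 genes were under that p, where 3.78% of all rows lay. Between the sexes, Tox, a factor of T cell differentiation and exhaustion, was nearest to the threshold, at 1.85 higher in females (SE 0.39, adjusted p = 0.0911), opposite in sign to the 10 members. Ccl3, a chemokine released by activated lymphocytes and macrophages, was counted 0, 0 and 0 times in F GCV, 3, 3 and 11 times in F VEH, 31, 73 and 1 times in M GCV and 50, 5 and 0 times in M VEH (adjusted p = 0.51 between the sexes).

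Genes of other cell types were read in the same comparisons. In females, GCV minus VEH had a median of -1.52 over 15 pan-leukocyte genes, -1.87 over 11 B lineage genes and -1.42 over 10 Kupffer cell genes, of which 14, 9 and 10 lay below 0, and in males the medians were 1.13, 1.28 and 1.04. For the females 2, 5 and 1 of them had an unadjusted p under 0.05, where 7.37% of all rows lay. Monocyte and neutrophil genes had medians of -0.45 in females and 1.01 in males, dendritic cell genes -0.68 and 0.32, and stellate and fibroblast genes -0.32 and 0.3. Endothelial genes lay below 0 in both sexes (-0.77 and -0.2), cholangiocyte genes above 0 in both (0.51 and 1.35), and hepatocyte genes had medians of 0.22 and -0.09. Also under that p in females were 3 of 8 endothelial, 1 of 7 dendritic cell, 1 of 6 cholangiocyte and 1 of 8 hepatocyte genes. No monocyte and neutrophil or stellate and fibroblast gene was. Between the sexes Kupffer cell genes had a median of -1.82, lower in females, with 10 of 10 below 0 and 8 of 10 under an unadjusted p of 0.05, and pan-leukocyte genes a median of -1.05, with 14 of 15 below 0 and 4 under that p, where 7.05% of all rows lay. For the interaction these medians were -2.68 and -2.47. Under that p were 2 of 10 Kupffer cell and 5 of 15 pan-leukocyte genes, where 3.78% of all rows lay. Of the B lineage genes, 5 of 11 were under it for the interaction. The summed Kupffer cell level ran from 171 to 521 CPM in F GCV, 465 to 1320 in F VEH, 321 to 5610 in M GCV and 236 to 2950 in M VEH. The summed pan-leukocyte level ran from 143 to 251, 213 to 586, 212 to 1900 and 146 to 926 CPM in the same groups. The median Kupffer cell sum was 1230 CPM in F VEH and 488 in M VEH, and the median pan-leukocyte sum 502 and 178 CPM. In VEH livers these medians were higher in females, unlike the sex comparison averaged over treatments. The summed level of the 8 hepatocyte genes ran from 110000 to 163000 CPM in F GCV, 90400 to 121000 in F VEH, 26900 to 89600 in M GCV and 42200 to 89800 in M VEH. No gene of these lists passed the edgeR test, where 0.303% of all rows passed between the sexes and 0% in the other comparisons. Their part in the values of the T cell genes was not tested.

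Among 12388 genes with a mean of at least 10 counts, the 5 most like the mean of the CD3 genes over the 12 p16-3MR livers were Sh2d2a (rho 0.923, r 0.919), a T cell adaptor protein, Zeb2os (rho 0.923, r 0.885), a transcript opposite Zeb2, Elmo2 (rho 0.916, r 0.839), an adaptor of engulfment, Itpr3 (rho 0.916, r 0.814), a calcium channel, and Traf1 (rho 0.909, r 0.897), an adaptor of tumour necrosis factor receptors. They are the top of a ranking of many genes over few livers and were not tested.

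In the WT livers the 3 identified genes held 66 counts in 12 livers, and 29 of 36 values were at or under 3 counts, 13 of them at 0. The labels of Cd3e and Cd3g were shared by 5 symbols, that of Cd4 by 3, those of Cd8b1 and Nkg7 by 2 each and that of Gzmb by 5, so that no value is given for them, and no label matched Gzmk. Gzma was counted 3, 6 and 2 times in F GCV livers, 9, 4 and 7 times in F VEH, 1, 2 and 0 times in M GCV and 1, 0 and 0 times in M VEH. Its group means were 0.923 ± 0.713, 1.36 ± 0.414, 0.242 ± 0.215 and 0.0887 ± 0.154 CPM (SD, n = 3). Cd3d was counted 0, 1 and 2 times in F GCV, 6, 2 and 5 times in F VEH, 0, 0 and 1 times in M GCV and 1, 2 and 2 times in M VEH. Cd8a was counted 1, 0 and 2 times in F GCV, 0, 1 and 4 times in F VEH, 0, 0 and 1 times in M GCV and not at all in M VEH. More than 3 counts in all 3 livers of a group were reached only by Gzma in F VEH.

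Gzma was higher in WT females than in WT males. Its log2 difference was 2.7 (SE 0.83, adjusted p = 0.0494), and DESeq2 gave 2.93 with an adjusted p of 0.0379. The pooled ratio was 6.88 (2.43 to 26.8, from 31 counts against 4). It was the 1 member of 3 called, where 7.94% of all labels were called, and 20.1% had an unadjusted p under 0.05. The call lay at the edge of the threshold: leaving out 1 liver at a time, the adjusted p ran from 0.027 to 0.153 and stayed under 0.05 only without liver 6 of F GCV or liver 1 of M VEH, and in VEH livers alone it was 0.105. In the p16-3MR livers, of another age and batch and scaled separately, Gzma had the other sign, at -2.28 (SE 1.23, adjusted p = 0.698). The difference between the tables was not tested. For Cd8a the pooled ratio of WT females over males was 7.1 (0.952 to 315, from 8 counts against 1, adjusted p = 0.318), and Cd3d stood at 1.14 (adjusted p = 0.545).

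**Figure D4:**
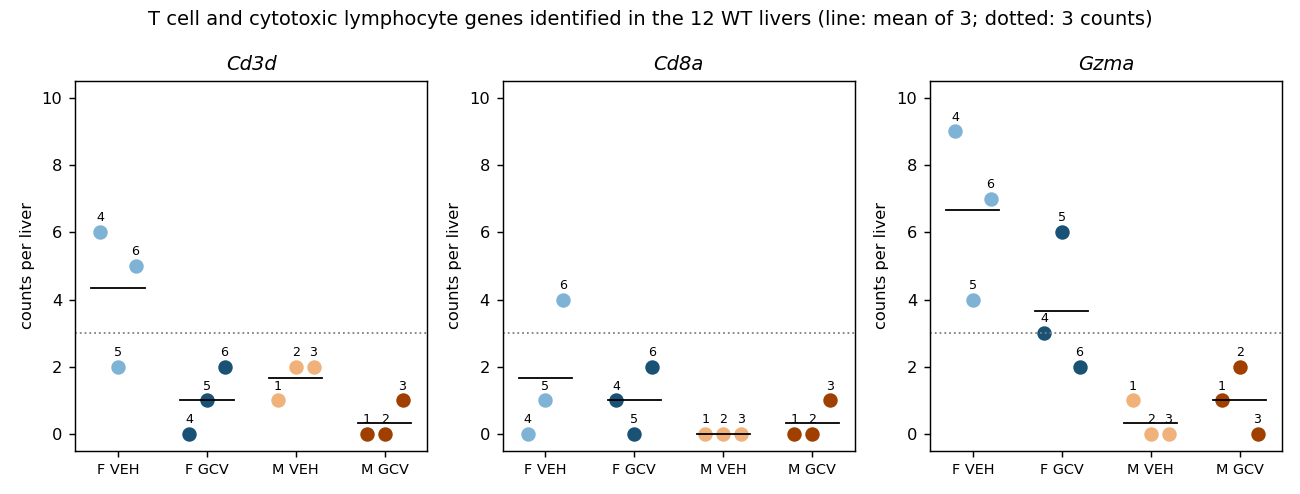
Estimated counts of Cd3d, Cd8a and Gzma in each of the 12 WT livers (vertical axis), with a point for each of the 3 livers of a group. A solid line marks the group mean and a dotted line 3 counts. Gzma lies between 2 and 9 counts in the 6 females and between 0 and 2 in the 6 males, and most other values lie at or under 3.

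GCV against VEH in WT females gave no call among the 3 genes (edgeR), where 0.00791% of all labels were called. None had an unadjusted p under 0.05, where 4.56% of all labels lay, and DESeq2 gave the 3 no adjusted p. Cd3d stood at -1.87 (SE 1.11, adjusted p = 1), with a pooled ratio, VEH over GCV, of 3.98 (1.09 to 21.8, from 13 counts against 3). Its groups did not overlap in CPM (0.365 against 0.442), nor did those of 10% of all labels, but both of these livers held 2 counts, under the floor. Gzma stood at -0.61 (SE 0.9, adjusted p = 1) and Cd8a at -0.69 (adjusted p = 1), both overlapping. In WT males edgeR called 0 of the 3, where 0% of all labels were called, 0 had an unadjusted p under 0.05, where 5.06% of all labels lay, and DESeq2 called none. No fold is given for the males because both groups were at or under 3 counts a liver. For the interaction in WT, edgeR again called 0 of the 3, where 0.00791% of all labels were called, 0 had an unadjusted p under 0.05, where 4.45% of all labels lay, and DESeq2 called none.

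Of the wider pathway in WT, 3 of 13 identified genes of the T cell receptor list were called between the sexes, and none of 13 cytotoxic, 14 transcription factor and homing and 6 costimulatory and checkpoint genes, where 7.94% of all labels were called. Trbc2, a constant region of the receptor's beta chain, was higher in females (1.7, SE 0.48, adjusted p = 0.0283), with 2.56 ± 1.09 and 2.43 ± 1.58 CPM in F GCV and F VEH against 0.759 ± 0.443 and 0.767 ± 0.26 CPM in M GCV and M VEH. Zap70, the kinase that binds phosphorylated CD3 chains, was also higher in females (0.52, SE 0.14, adjusted p = 0.0234). Its means were 21.9 and 17.7 CPM in F GCV and F VEH, and 12 and 15.5 CPM in M GCV and M VEH. Themis, a regulator of T cell selection, was lower (-3.34, SE 0.91, adjusted p = 0.0239), from 36 counts in all. Its means were 0.0753 and 0.131 CPM in F GCV and F VEH, and 1.36 and 1.18 CPM in M GCV and M VEH. The female means lay under the floor of 3 counts, which was 0.516 CPM or more in WT females, so that the size of this difference is uncertain. Beside them Ptprc, the pan-leukocyte surface phosphatase CD45, was higher in WT females by 0.66 (SE 0.2, adjusted p = 0.047). It was the 1 called of 11 identified pan-leukocyte genes (median 0.17), and in other lists 2 of 4 stellate and fibroblast genes (Lrat and Dcn) and Plac8 were higher and S100a8 and Serpina1a lower in females. In the same libraries the summed level of 11 pan-leukocyte genes ran from 155 to 208 CPM in females and from 152 to 177 CPM in males. The part of these genes in the Gzma difference was not tested.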

How the data were processed

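Livers were profiled with Smart-3SEQ, which reads transcript 3′ ends. The submitters' processing notes name FastQC 0.11.9, Trim Galore 0.6.10, Salmon 1.10.3 and the mm10 build. The authors deposited estimated counts per gene, 1 table for p16-3MR and 1 for WT livers, and state that genes under 3 reads were dropped and that they tested with DESeq2. Estimated counts were rounded to whole numbers here. WT labels lack 9 letters, and a gene was used where its shortened symbol matched no other symbol.

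Each table was fitted by itself with edgeR 4.0.16 in R 4.3.3: TMM scaling, 1 mean for each sex and treatment group (12 livers), quasi-likelihood tests, Benjamini-Hochberg adjustment over all rows and a threshold of 0.05. The SE is the absolute log2 fold change divided by the square root of the F statistic. Log2 CPM used a prior count of 2. DESeq2 1.42.0, other scalings and filters, a replicate block, treatment within 1 sex, VEH livers alone and each liver left out were alternatives. The fit was tested on simulated counts with known changes. These were put in genes with a mean of at least 10 counts, so that the test does not cover sparser members such as Cd3d and Gzmk. Intervals are exact at 95% for pooled counts, and these and the floor of 3 counts cover counting error only, since PCR copies were not marked. Replicates are separate mice by the labels, and no libraries held identical values. WT replicate numbers were treated as names only (same-numbered livers correlated from -0.066 to 0.283). Whether they mark pairs was not tested. The biological coefficient of variation was 55.8% in p16-3MR and 16.6% in WT livers.

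All 10 members are named. From other lists, genes with an adjusted p under 0.05 were eligible (at most 6 a list), otherwise the 3 with the lowest unadjusted p, and for likeness the 5 genes with the highest rho. A few further genes and list members were named after their values were seen. The members and lists were chosen with earlier results of these data known. Figures were drawn with Python 3.11.15, pandas 2.3.3 and matplotlib 3.10.9.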

Additional observations from a re-analysis of the deposited data

How the results depend on the processing

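No adjusted call among the 10 members appeared in p16-3MR livers under any alternative, and no member with an unadjusted p under 0.05 in the reported fit changed sign. The number of members at an unadjusted p under 0.05 was 4 in females, 4 for the interaction and 7 between the sexes with scaling by total counts alone, where 4.98%, 4.12% and 13.4% of all genes lay and the median of all genes was -0.58, -0.66 and -0.58. The median of the members was then -2.87, -3.6 and -1.97. In females (2) the number was 3 with DESeq2 (8.44% of all genes), 1 with DESeq2 size factors (7.69%) and 1 with the filter by expression (9.3%), which also gave 1 for the interaction (3, now 2.97% of all genes). In WT livers, the sex comparison called 1 member (Gzma), but 0 with VEH livers alone, and 0 to 1 leaving out each liver. With WT replicate numbers as a block, 0 of the members were called for GCV in either sex or the interaction, and the filter by expression left no member in WT to test.

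Counts over all genes moved more. For p16-3MR females (0 genes called) DESeq2 called 86, the fit on 6 livers of 1 sex called 3 and leaving out a liver gave 0 to 1. For males (0) DESeq2 called 5 and leaving out a liver gave 0 to 1, and for the interaction (0) DESeq2 called 3. Between the sexes (66) DESeq2 called 200, VEH livers alone 26 and leaving out a liver 50 to 77. For WT females (1) DESeq2 called 17, the filter by expression 0, the 6 livers of 1 sex 44, the replicate block 106 and leaving out a liver 0 to 12. For WT males (0) DESeq2 called 1, the replicate block 68 and leaving out a liver 0 to 46. For the WT interaction (1) the filter called 0, the replicate block 79 and leaving out a liver 0 to 17. Between WT sexes (1004) total counts gave 3652, total counts without mitochondrial genes 3805, VEH livers alone 483 and leaving out a liver 788 to 1257. The cause of these shifts was not tested. Depth limits the members: 44 of 120 values in p16-3MR livers and 29 of 36 in WT livers were at or under 3 counts.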
